A study of Mus musculus with 9 samples.

Results

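The proteasome genes described here were the 46 protein-coding genes whose symbol is Psma, Psmb, Psmc, Psmd, Psme, Psmf or Psmg followed by a number, of 13770 genes with at least 1 Argonaute (AGO) peak in mouse liver. Together they held 251 of 92645 peaks. Of these, 45 encode parts or helpers of the proteasome, and Psmc3ip, a cofactor of meiotic recombination, has only the matching name. The reads came from AGO CLIP-seq, in which ultraviolet light crosslinks RNA to AGO, the partner of microRNAs in silencing, and the RNA bound to it is sequenced. Libraries were made from livers of 4 mice without miR-122 (KO; replicate 1 female, replicates 2 to 4 male) and of 5 floxed littermate controls labelled wild type for miR-122 (replicates 1 to 3 female, replicates 4 and 5 male). All mice were 6 weeks old, and each library came from its own mouse. The sources used here do not give the Cre line or the cells in which it acts. The comparison addresses where AGO binds through miR-122, which hepatocytes make in great excess over other microRNAs.

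The proteasome degrades proteins tagged with ubiquitin. Its 20S core is a barrel of alpha rings, which gate the entry, around beta rings, which hold the cutting sites, and its 19S cap recognises ubiquitin chains and unfolds the substrate with a ring of ATPases. Immune cells and inflamed tissue replace the cutting subunits with immunoproteasome forms, and dedicated chaperones assemble the particle. Liver depends on the proteasome for turnover of secretory proteins that fail to fold and of many metabolic enzymes.

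MicroRNAs pair with targets mainly through the seed, bases 2 to 8. The deposited file lists seed matches in each peak for a set of microRNA families, and every family named below is such a match in the sequence, not a pairing that was tested. The mature sequences of some microRNAs whose matches stood in well-covered proteasome peaks are given here, taken from RefSeq (GRCm38.p6), with the seed in capitals. The list is a selection and leaves out other families with matches in such peaks, among them miR-122, miR-320 and miR-378.
miR-22-3p: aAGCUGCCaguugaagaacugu
miR-29a-3p: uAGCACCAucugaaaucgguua
miR-30a-5p: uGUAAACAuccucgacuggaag
miR-26a-5p: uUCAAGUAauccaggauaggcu
miR-103-3p: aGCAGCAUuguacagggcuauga
miR-107-3p: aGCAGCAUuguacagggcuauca
miR-16-5p: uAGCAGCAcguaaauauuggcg
miR-15a-5p: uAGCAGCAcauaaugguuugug
let-7a-5p: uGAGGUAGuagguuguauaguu
miR-194-5p: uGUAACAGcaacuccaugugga
miR-193a-3p: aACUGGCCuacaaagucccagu
miR-103 and miR-107 share 1 seed, and miR-15a and miR-16 share another. The miR-103/107 and the miR-15/16 families each matched 27 of the 251 peaks (10.8%; 10.1% of all protein-coding peaks for either family). The miR-22 family matched 21 peaks in 17 genes, the miR-29 family 18 peaks in 14 genes, and the let-7 family 15 peaks in 12 genes. No listed family matched 47 peaks (18.7%, against 16.3% of protein-coding peaks).

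miR-122-5p matches stood in 17 proteasome peaks of 14 genes. This was 6.77% of the peaks, against 9.33% of all protein-coding peaks. Of the 17, 7 lay in coding sequence, 5 in the 3′ UTR, 3 in introns, 1 in the 5′ UTR and 1 in a SINE repeat. By the length of the match, 2 were 8mers, 3 were 7mer-m8, 6 were 7mer-A1 and 6 were 6mers, from the longest to the shortest. Conservation at the match (mean phyloP over the 6 core bases of the match, the authors' value) ran from -0.519 in Psmc3 to 2.69 in Psmd10. A further Psma4 peak carried a match of the class that the file marks with "-B", which the sources used here do not define. Peaks of Psmb5, Psmb8, Psmb9 and Psmd11 carried a match to miR-122-3p, the other strand of the same hairpin.

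The libraries held 535637 to 957430 reads in gene peaks for KO and 401826 to 1039663 for controls, of which the proteasome genes took 703 to 1885 in KO and 823 to 2216 in controls. The Mir122 locus held 52, 3, 39 and 16 reads in the KO libraries, against 447, 270, 378, 396 and 324 in the controls. KO replicate 4 stood apart: summed neuron markers reached 12003 CPM (read counts brought to a common library size, with edgeR's TMM scaling) there and 2149 to 2738 CPM in the other KO libraries, against 50.9 to 65.6 CPM in controls. Markers of astrocytes or oligodendrocytes were also highest there (2391 CPM, with 668 to 743 CPM in the other KO libraries, against 340 to 563 CPM in controls), as were those of red cells (26780 CPM, with 12487 to 15693 CPM in the other KO libraries, against 9485 to 15546 CPM in controls). The part of these markers in the results below was not tested. The total counts of called proteasome genes and peaks are given without KO replicate 4 as well. Counts by miR-122 match, counts of pathway and marker genes, the share test and the percentages over all tested genes are given with it only.

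Proteasome genes took 0.209%, 0.188%, 0.197% and 0.131% of gene reads in KO replicates 1 to 4, against 0.226%, 0.205%, 0.214%, 0.213% and 0.215% in controls 1 to 5. The lowest share was in KO replicate 4, and of the KO libraries only replicate 1 was above the lowest control. Peaks with a miR-122-5p match held 2.84%, 1.63%, 1.96% and 2.42% of the proteasome reads in KO, against 16.5%, 14.9%, 16.1%, 16.9% and 14.3% in controls. Every KO library was below every control in this share, by a wide gap. Without those peaks, proteasome genes took 0.203%, 0.185%, 0.193% and 0.128% of gene reads in KO, against 0.188%, 0.174%, 0.180%, 0.177% and 0.185% in controls, so KO replicates 1 and 3 were above all controls, replicate 2 was above all but control 1, and replicate 4 was below all of them. Such shares move with the other genes' reads too, since gene reads here still include miR-122 peaks of other genes.

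**Figure D1:**
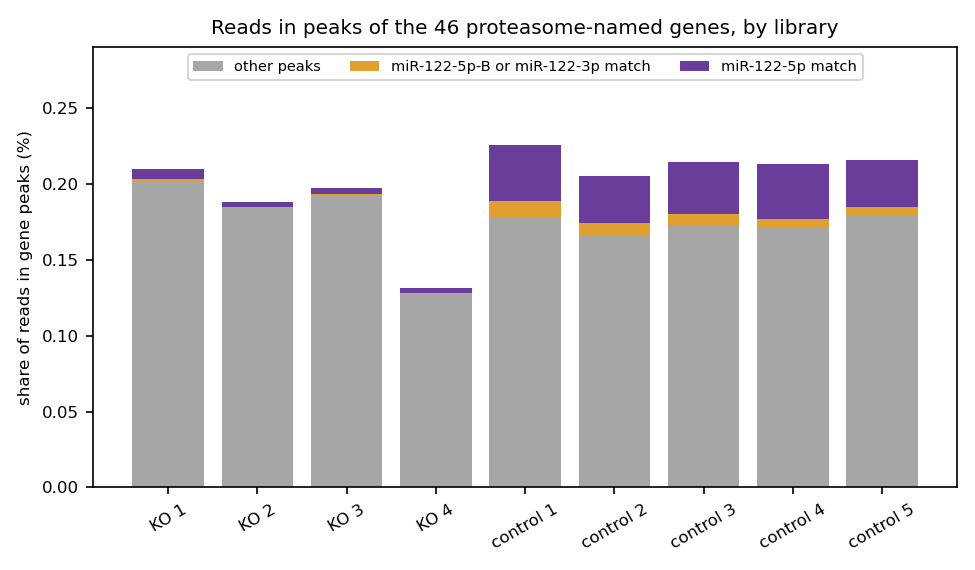
Share of each library's gene reads (percent) that lay in peaks of the 46 genes, KO libraries left and controls right, split by miR-122 match. The miR-122-5p portion was 0.00307% to 0.00594% of gene reads in KO and 0.0306% to 0.0371% in controls, and KO replicate 4 had the shortest bar.

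Summed over all peaks of a gene, AGO-bound reads were lower in KO for 6 proteasome genes and higher for none. The 6 were the core alpha subunits Psma1, Psma4 and Psma7, the immunoproteasome subunit Psmb8, the cap ATPase Psmc4 and the cap lid subunit Psmd12. Of the 46 genes, 35 had enough reads to test (88 to 1233 over the 9 libraries), and 29 of these did not pass. The 6 of 35 make 17.1%, against 23.3% of all 8843 genes tested that were lower and 21.9% that were higher (edgeR's quasi-likelihood test with Benjamini-Hochberg adjustment at 0.05). The median log2 fold change, KO over control, was -0.35 over the 35 proteasome genes and 0.07 over all tested genes, and 24 of the 35 (68.6%) were below 0, against 46.9% of all. The KO libraries lay below all controls in 9 of the 35 (25.7%) and above all controls in 0, where 40.5% of all tested genes had no overlap in either direction. A sum of AGO-bound reads combines how much of an mRNA there was with how much of it AGO held, and in whole liver fewer cells of a type and less RNA per cell cannot be told apart. Without KO replicate 4, 8 proteasome genes were lower, with Psmb5 and Psmd2 added, while the median over the proteasome genes was -0.18. Without control replicate 5 that median was -0.19. With TMM factors taken from genes without a miR-122 match, 15 proteasome genes were lower and 0 higher. The median of all tested genes was then -0.34, and their higher calls went from 1940 to 1092. The share of all tested genes lower under that scaling is not given here, so the 15 cannot be set against it.

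Sorted by miR-122 match, the lower calls were 4 of 12 tested genes with a miR-122-5p peak (33.3%, against 37.1% of the 4159 such genes in the table) and 2 of 23 without one (8.70%, against 11% of 4684). The 2 were Psma4, with its "-B" peak, and Psmb8, with its miR-122-3p peak. Of the 19 tested proteasome genes with no miR-122 label of any kind, 0 were called in either direction, and their median was -0.02. No share over all genes without any such label was computed. With miR-122-5p peaks left out of every gene, which changed the scaling, 4 of the 19 were lower (21.1%, against 16.8% of all 8430 genes then tested). Their median was then -0.29. Over all peaks, DESeq2 called 5 proteasome genes lower, without Psmb8.

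**Figure D2:**
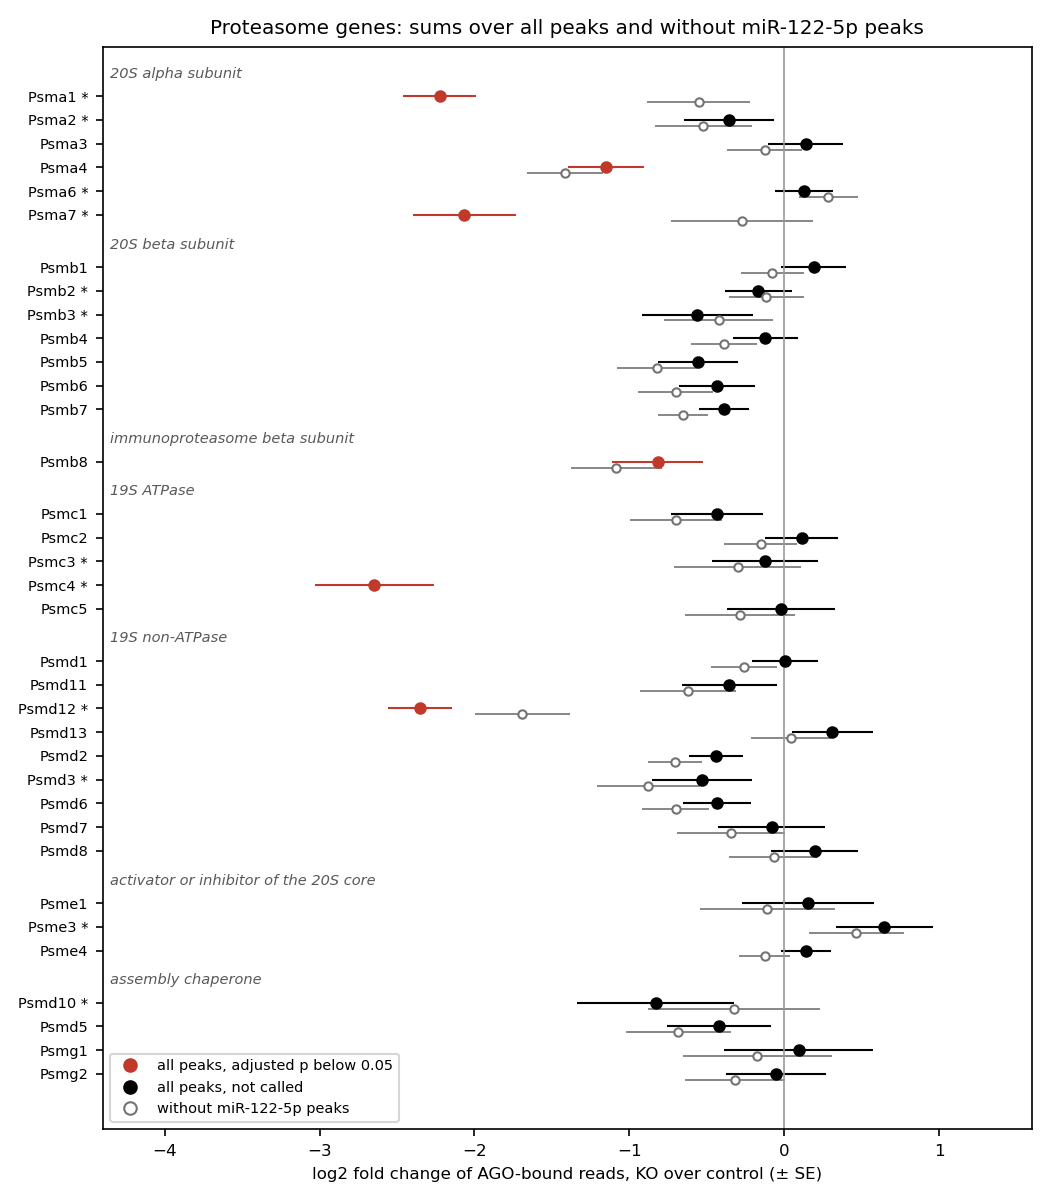
Log2 fold change of AGO-bound reads, KO over control, with its standard error, for the 35 tested genes by role. Filled points sum all peaks, red where called. Open points leave out miR-122-5p peaks, in a fit with its own scaling that moved genes without such a peak by a median of -0.26. An asterisk marks a gene with a miR-122-5p peak. The red points run from -2.65 (Psmc4) to -0.82 (Psmb8), and the open points of Psma1 and Psma7 lie at -0.55 and -0.27.

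Among the alpha subunits, 3 of 6 tested were lower. Psma1 had 21.7, 19.6, 26.7 and 11.5 CPM in KO, against 111, 103.8, 106.8, 93.7 and 91.7 CPM in controls. The groups were far apart, with means of 19.9 ± 6.33 CPM in KO and 101.4 ± 8.40 CPM in controls (SD, n = 4 and 5), a log2 fold change of -2.22 (SE 0.24, edgeR adjusted p = 2.1e-05). Most of the difference lay in a single coding peak with a 7mer-m8 match (mm10, chr7:114267127-114267196, minus strand), which held 3, 2, 8 and 0 reads in KO, against 54, 26, 92, 73 and 45 in controls (log2 -4.29, SE 0.44, edgeR adjusted p = 8.4e-07). The other 3 Psma1 peaks together held 60 reads in KO and 77 in controls.

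Psma7 had 12.4, 14.4, 26.7 and 9.21 CPM in KO, against 93.3, 84.7, 68.3, 65.0 and 54.3 CPM in controls, with no overlap (log2 -2.07, SE 0.33, edgeR adjusted p = 0.00039). It had a pair of miR-122-5p peaks. The coding one (chr2:180038084-180038153, 6mer) held 7 reads in KO and 142 in controls (log2 -4.06, edgeR adjusted p = 2.3e-06). The intronic one (chr2:180039523-180039592, 7mer-A1) held 0 reads in KO and 60 in controls, at least 16.4-fold lower against a floor of 3 reads over the KO group. Reads in the remaining 3 Psma7 peaks numbered 51 in KO and 56 in controls.

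Psma4 had 48.6, 23.7, 44.8 and 23.0 CPM in KO, against 114, 122.9, 92.0, 65.0 and 74.7 CPM in controls. All KO libraries were below the lowest control (log2 -1.15, SE 0.25, edgeR adjusted p = 0.0025). Its coding peak with the "-B" 8mer match (chr9:54952324-54952393) held 0 reads in every KO library and 25, 21, 26, 17 and 9 reads in the controls, at least 32.6-fold lower. The other 4 Psma4 peaks held 127 reads in KO and 223 in controls. Only 2 of the 4 could be tested, and neither passed (log2 -0.66, edgeR adjusted p = 0.14, and log2 -0.74, edgeR adjusted p = 0.16).

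Psma6 was the alpha subunit gene with the most reads, and its peaks differed among themselves. The sum was 142.6, 163.7, 156.5 and 101.4 CPM in KO, against 152.9, 117.5, 122.7, 141.4 and 117.2 CPM in controls, and the groups overlapped (log2 0.13, SE 0.19, edgeR adjusted p = 0.62). Its miR-122-5p 6mer peak (chr12:55418364-55418433, annotated 3′ UTR) held 8, 6, 6 and 1 reads in KO, against 28, 13, 39, 48 and 15 in controls (log2 -2.55, SE 0.39, edgeR adjusted p = 4.2e-05). Its deepest peak, with a miR-22 match (chr12:55410131-55410200), held 413 reads in KO and 284 in controls (log2 0.60, SE 0.24, edgeR adjusted p = 0.054). The 4 peaks outside the miR-122 match together held 484 reads in KO and 336 in controls. The 4 peaks annotated 3′ UTR in Psma6 span 8.30 kb, and the label is given here as deposited. Psma2, whose 3′ UTR peak has a 7mer-A1 match, was not called (log2 -0.35, edgeR adjusted p = 0.35), and that peak held 20 reads in KO and 42 in controls.

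**Figure D3:**
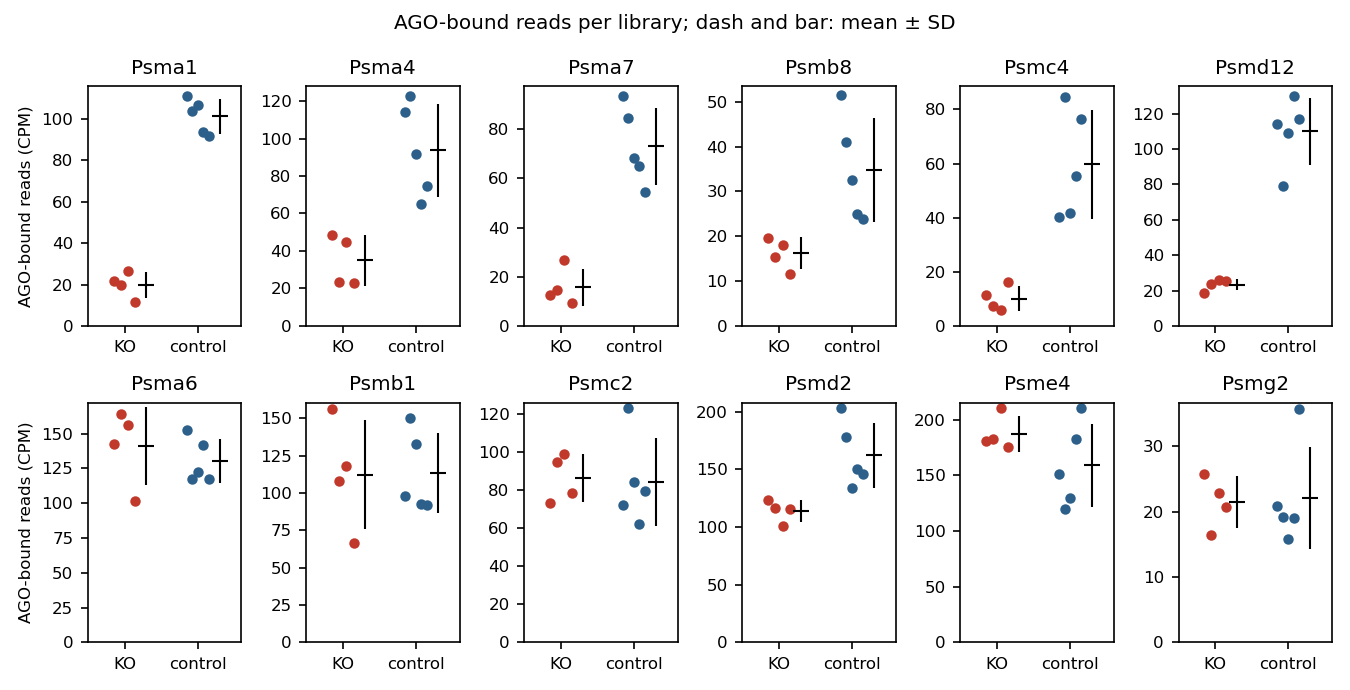
TMM-scaled CPM summed over all peaks, 1 point a library, KO (red) left of controls (blue), with mean ± SD beside the points; the vertical axis starts at 0 and differs between genes. The top row shows the 6 called genes, where KO and control points do not overlap; the bottom row shows the most-read tested gene of 6 roles, where they do except in Psmd2.

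Of the 7 beta subunit genes of the constitutive core, 0 were called over all peaks, and their log2 fold changes ran from -0.56 to 0.19. Psmb5, the subunit with the chymotrypsin-like cutting site, had 68.2, 50.5, 39.1 and 82.9 CPM in KO, against 115.9, 65.6, 90.0, 82.2 and 91.7 CPM in controls, overlapping in KO replicate 4 and in KO replicate 1 (log2 -0.56, SE 0.26, edgeR adjusted p = 0.098). Its coding peak with a miR-122-3p 7mer-A1 match (chr14:54614369-54614438) held 3, 2, 0 and 2 reads in KO, against 14, 3, 19, 20 and 14 in controls (log2 -3.08, SE 0.61, edgeR adjusted p = 0.00052). Psmb7, the subunit with the trypsin-like site, had 102.3, 91.6, 82.0 and 92.1 CPM in KO, against 109.4, 133.9, 132.5, 116.6 and 125.6 CPM in controls. The groups did not overlap, yet the difference missed the threshold (log2 -0.39, SE 0.16, edgeR adjusted p = 0.066). Psmb6, the subunit with the caspase-like site, had a log2 fold change of -0.43 (edgeR adjusted p = 0.17).

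Single coding peaks of Psmb6 and Psmb7 without a miR-122 match passed on their own. That of Psmb6 (chr11:70526565-70526634), with matches to miR-193 and miR-194, held 76 reads in KO and 149 in controls (log2 -0.83, SE 0.31, edgeR adjusted p = 0.041). That of Psmb7 (chr2:38640107-38640238), with a miR-29 match, held 92 reads in KO and 175 in controls (log2 -0.71, SE 0.27, edgeR adjusted p = 0.040). Psmb1, a structural beta subunit and the most-read of the class, had 66.8 to 156 CPM in KO, against 91.7 to 150.3 CPM in controls, with overlap (log2 0.19, edgeR adjusted p = 0.48). The coding peak that held most of its reads (chr17:15490155-15490224, matches to miR-26 and miR-30) had 279 reads in KO and 312 in controls. Intronic Psmb2 peaks with a 7mer-A1 and an 8mer held 3 reads in KO and 45 in controls, and a Psmb3 peak in a SINE repeat with an 8mer held 2 reads in KO and 19 in controls. Neither gene was called over all peaks (log2 -0.17 and -0.56).

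Psmb8, the immunoproteasome counterpart of Psmb5, had 19.6, 15.4, 18.1 and 11.5 CPM in KO, against 51.5, 41.0, 32.6, 24.8 and 23.8 CPM in controls. The groups did not overlap (log2 -0.82, SE 0.29, edgeR adjusted p = 0.038). The call was lost without KO replicate 1 or 2 or control 1, 4 or 5 (edgeR adjusted p from 0.058 to 0.20). Its 5′ UTR peak with a conserved miR-122-3p 8mer (chr17:34198367-34198436, phyloP 2.31) held 2, 1, 2 and 0 reads in KO, against 26, 9, 27, 19 and 11 in controls (log2 -3.76, SE 0.53, edgeR adjusted p = 2.1e-05). The other 3 Psmb8 peaks went the other way in total, with 53 reads in KO and 28 in controls. Psmb9 and Psmb10, the other immunoproteasome cutting subunits, had too few reads to test, at 6.91 to 21.7 CPM in KO, against 5.46 to 9.66 CPM in controls, for Psmb9, and at 4.61 to 15.5 CPM in KO, against 2.73 to 11.5 CPM in controls, for Psmb10. Macrophage markers summed to 408 to 590 CPM in KO, against 327 to 375 CPM in controls, and lymphocyte markers to 198 to 283 CPM in KO, against 74.2 to 126 CPM in controls. The part of these cells in the Psmb8 values was not tested.

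Of the 5 tested ATPase genes of the cap, Psmc4 alone was called. It had 11.4, 7.21, 5.72 and 16.1 CPM in KO, against 40.2, 84.7, 41.5, 55.4 and 76.4 CPM in controls, with no overlap (log2 -2.65, SE 0.39, edgeR adjusted p = 0.00019). Its coding peak with a miR-122-5p 6mer (chr7:28042385-28042454) held 5, 0, 1 and 1 reads in KO, against 23, 27, 30, 45 and 33 in controls (log2 -4.32, SE 0.56, edgeR adjusted p = 8.2e-06). The other 4 Psmc4 peaks held 24 reads in KO and 43 in controls, too few to test the gene once the matched peak was left out. Psmc3, with a 6mer in its 5′ UTR, did not pass (log2 -0.12, edgeR adjusted p = 0.80), and that peak held 7 reads in KO and 13 in controls. Psmc2, the most-read ATPase gene, had 73.4 to 99.2 CPM in KO, against 62.1 to 122.9 CPM in controls (log2 0.11, edgeR adjusted p = 0.73).

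Psmd12, a subunit of the lid of the cap, was the 1 called non-ATPase gene of 9 tested and had the smallest adjusted p of all proteasome genes. It had 18.6, 23.7, 25.8 and 25.3 CPM in KO, against 114, 79.2, 108.8, 130.0 and 117.2 CPM in controls (log2 -2.35, SE 0.21, edgeR adjusted p = 5.6e-06). The coding peak with a 7mer-m8 (chr11:107492071-107492140) held 9, 11, 6 and 2 reads in KO, against 52, 22, 77, 83 and 47 in controls (log2 -3.19, SE 0.34, edgeR adjusted p = 9.7e-07). A second coding peak (chr11:107495676-107495745), in which the file lists no family match, held 3, 3, 2 and 2 reads in KO, against 9, 4, 13, 21 and 17 in controls (log2 -2.64, SE 0.48, edgeR adjusted p = 0.00024). Psmd12 was still called when its miR-122-5p peak was left out (log2 -1.69, SE 0.31, edgeR adjusted p = 0.0013).

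Psmd2, the cap subunit that binds ubiquitin-like shuttle proteins, had 123, 116.4, 101.1 and 115.2 CPM in KO, against 202.8, 177.6, 133.5, 150 and 146 CPM in controls. The groups did not overlap, and the difference missed the threshold (log2 -0.44, SE 0.17, edgeR adjusted p = 0.055). Much of the difference lay in a peak without a listed family (chr16:20661661-20661730), with 3, 1, 4 and 8 reads in KO, against 21, 18, 39, 46 and 19 in controls (log2 -2.93, SE 0.54, edgeR adjusted p = 0.00025). Its deepest peak (chr16:20657986-20658055), with matches to the miR-103/107, miR-15/16 and miR-378 families, held 179 reads in KO and 207 in controls (log2 0.02). All 11 Psmd2 peaks are annotated 3′ UTR over 8.85 kb, and that label too is given as deposited. Psmd6 (log2 -0.44, edgeR adjusted p = 0.13) and Psmd3, whose coding 6mer peak held 9 reads in KO and 11 in controls (log2 -0.53, edgeR adjusted p = 0.20), were not called. In Psmd11, a downstream peak with a miR-122-3p match held 0 reads in KO and 13 in controls, at least 3.55-fold lower.

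The 3 tested activator genes had log2 fold changes from 0.14 to 0.65, with 0 called. Psme3, the activator found in the nucleus, had 62.0, 63.8, 48.7 and 112.9 CPM in KO, against 22.5, 30.1, 45.5, 40.1 and 64.5 CPM in controls, and control replicate 5 was above 3 of the KO libraries (log2 0.65, SE 0.31, edgeR adjusted p = 0.11). Its 3′ UTR 6mer peak held 1, 1, 0 and 7 reads in KO, against 2, 1, 5, 5 and 3 in controls, with the highest value in KO replicate 4. Psme4, another nuclear activator with 28 peaks, had 175 to 210.8 CPM in KO, against 120.2 to 210.5 CPM in controls (log2 0.14, edgeR adjusted p = 0.52), and 6 of its peaks overlap Erlec1. Psmf1, an inhibitor of the core in vitro, was too sparse to test, and its 3′ UTR 7mer-A1 peak held 1 read in KO and 22 in controls.

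The 4 tested assembly chaperones gave log2 fold changes from -0.83 to 0.09, with 0 called. Psmd10, the oncoprotein gankyrin that helps assemble the cap ATPases, had 13.4, 5.15, 21.9 and 2.30 CPM in KO, against 11.3, 24.6, 22.8, 20.1 and 25.5 CPM in controls, with overlap (log2 -0.83, SE 0.51, edgeR adjusted p = 0.20). Its coding peaks with a 7mer-m8 and a 7mer-A1 held 3 reads in KO and 32 in controls. Psmg2, the most-read chaperone, had 16.5 to 25.8 CPM in KO, against 15.8 to 35.7 CPM in controls (log2 -0.05, edgeR adjusted p = 0.91). The only Psmc3ip peak, a 3′ UTR 7mer-A1, held 4, 0, 1 and 0 reads in KO, against 1, 0, 4, 11 and 0 in controls. The other genes without a test were Psma5, Psmc6, Psmd4, Psmd9, Psmd14, Psme2 and Psmg3, and all 11 untested genes held 16 to 81 reads each.

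Over all 17 miR-122-5p peaks, including the untested ones, KO libraries held 135 reads and controls 1290, and 16 of the 17 had a lower mean CPM in KO. The exception was the Psmd3 peak. Of the 48 proteasome peaks that could be tested, 13 were lower (27.1%, against 27.6% of all 17182 tested peaks) and 0 were higher (17.5% of all). The 13 became 8 without control replicate 3 or without control replicate 5, and 15 without KO replicate 4. The 0 higher became 2 without KO replicate 4 or without KO replicate 2, and 1 without KO replicate 3. The 6 tested miR-122-5p peaks were all lower, as were 89.8% of the 2637 such peaks in the table. The tested "-B" peak was lower (85.8% of 662 such peaks), and so were both tested miR-122-3p peaks (60.4% of 164). The miR-122-3p peak of Psmb9, too sparse to test, held 13 reads in KO and 10 in controls. A peak well covered in controls only can pass the read filter through the controls alone, so this count is a description. Of 39 tested proteasome peaks without any miR-122 label, 4 were lower (10.3%, against 12.7% of such peaks) and their median log2 fold change was -0.06.

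The share of a gene's own reads that lay in its miR-122 peaks does not depend on how libraries are scaled. Among 18 proteasome genes with labelled and other peaks and a read in every library, this share was lower in KO for 12 (two-sided exact permutation over 126 splits, adjusted over the 4892 such genes in the table, adjusted exact p = 0.018 to 0.038; the smallest raw p is 0.00794). Of all 4892, 63.5% were lower. In Psmb8 the share was 6.93% ± 4.97 in KO and 74.9% ± 9.04 in controls (SD, n = 4 and 5). Psma1 had 13.3% ± 11.8 in KO and 77.9% ± 6.79 in controls, and Psma7 had 14.6% ± 7.36 in KO and 78.1% ± 5.07 in controls. Psmc4 had 19.1% ± 19.05 in KO and 80.3% ± 8.91 in controls. In Psma6 it was 3.88% ± 1.45 in KO and 29.1% ± 4.25 in controls, although the sum over that gene was not called. In Psmf1, too sparse for the gene test, it was 2.78% ± 5.56 in KO and 46.5% ± 7.95 in controls. Some KO shares rest on few reads of the gene per library: 2 to 9 in Psmf1, 6 to 11 in Psmc4, 5 to 19 in Psmb8, 4 to 28 in Psma7 and 5 to 28 in Psma1. In Psmd12 the share was 34.6% ± 16.7 in KO and 69.6% ± 5.66 in controls, and an unlabelled peak of that gene was lower as well. Psma4, Psmb2, Psmb3, Psmb5 and Psmd10 completed the 12, with means of 0% to 4.10% in KO and 20.4% to 43.4% in controls. The shares of Psma2, Psmb9, Psmc3, Psmd3, Psmd11 and Psme3 were not called (adjusted exact p = 0.068 to 0.64). This comparison was added after the values were seen.

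**Figure D4:**
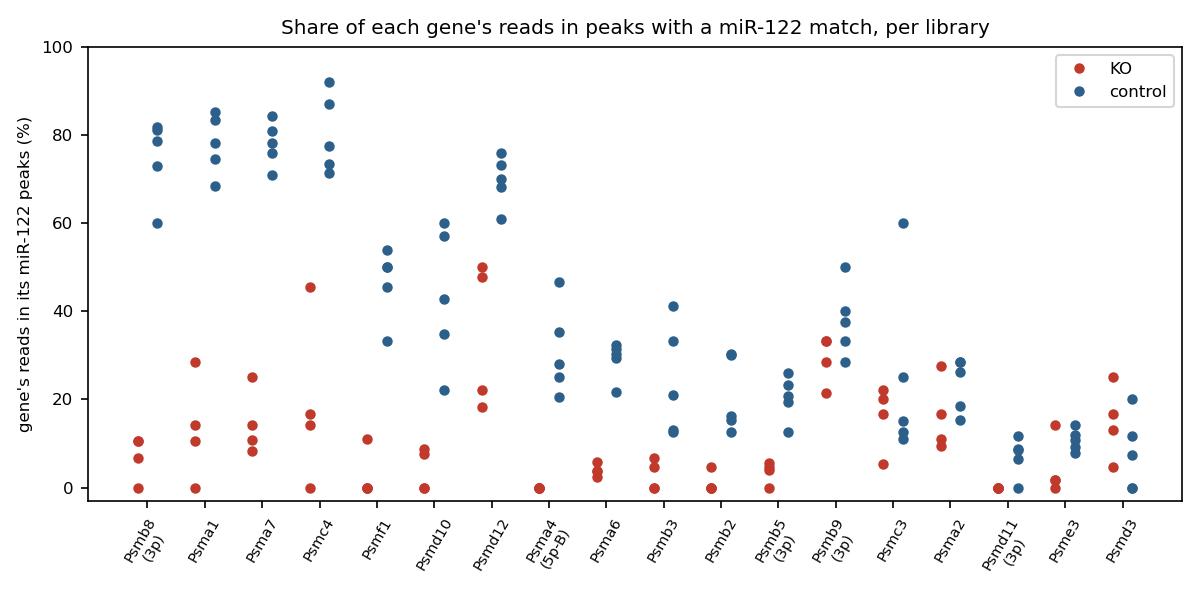
Percent of each gene's reads that lay in its peaks with a miR-122 match, 1 point a library, KO (red) left of controls (blue), genes ordered by the difference; marks under a name give the strand or class where it is not miR-122-5p. In Psmb8, Psma1, Psma7 and Psmc4 every KO point is at or below 45.5% and every control point at or above 60%.

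With miR-122-5p peaks left out of every gene in the table, 8 of 34 tested proteasome genes were lower (23.5%, against 16.8% of 8430 genes) and 0 were higher (17.1%). They were Psma4, Psmb5, Psmb6, Psmb7, Psmb8, Psmd2, Psmd6 and Psmd12, at log2 -0.65 to -1.69. Leaving the peaks out also changed the scaling: genes whose reads were untouched moved by a median of -0.26 on the log2 scale. With the library scaling of all peaks kept, 3 were lower, Psma4 (log2 -1.15, edgeR adjusted p = 0.0033), Psmb8 (-0.82, edgeR adjusted p = 0.044) and Psmd12 (-1.43, edgeR adjusted p = 0.0033), and Psma6 was higher (0.55, edgeR adjusted p = 0.038). The median over the 34 genes was then -0.07, against 0.30 over all 8430 genes, of which 2247 were called higher. The share of all genes lower under the kept scaling is not given here. Psma1 (-0.55 in its own scaling, edgeR adjusted p = 0.23; -0.29 in the kept one) and Psma7 (-0.27, edgeR adjusted p = 0.69; -0.01) were called under neither. Without KO replicate 1 the 8 lower genes became 4, and without control replicate 3, 4 or 5 they became 5, while without KO replicate 4 they were 9. With the miR-122-3p and "-B" peaks left out as well, Psmb8 reversed to 0.81 (edgeR adjusted p = 0.14) and Psmb5 lost its call (-0.51, edgeR adjusted p = 0.13), and the other 6 of the 8 genes stayed lower. Under the 21 alternatives run for each, the call was lost 14 times for Psmb6, 11 for Psmb5, 8 for Psmd6 and 3 for Psmd2. For Psma4 and Psmd12 it was lost 0 times.

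Of the 251 proteasome peaks, 139 were labelled coding sequence (55.4%, against 41.9% of protein-coding peaks) and 71 were labelled 3′ UTR (28.3%, against 37.7%). These labels are given as deposited and were not checked. As in Psma6 and Psmd2, peaks labelled 3′ UTR span long stretches in Psmd1 (10 peaks, 56.0 kb), Psmd11 (7 peaks, 16.3 kb) and Psmd13 (4 peaks, 9.32 kb). The alternatives below that use only 3′ UTR or coding peaks take the same labels. Coding peaks took 55.2% ± 1.87 of proteasome reads in KO and 63.5% ± 1.90 in controls (SD, n = 4 and 5), and 3′ UTR peaks took 37.0% ± 1.65 in KO and 28.9% ± 1.76 in controls. Over all protein-coding genes the coding share was 36.5% in KO and 48.0% in controls, a difference in the same direction.

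Sex made no call among the proteasome genes: 0 of 35 passed in males over females by edgeR and 0 by DESeq2, with 3 at an unadjusted p under 0.05, where 0.407% of all tested genes passed by edgeR. The smallest edgeR adjusted p among them was 0.60.

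Of 47 other genes of the ubiquitin and proteasome pathway, chosen by function, 42 were tested, 5 were lower (11.9%, against 23.3% of all tested genes) and 5 higher (11.9%, against 21.9%). Vcp, the segregase that hands ubiquitinated proteins to the proteasome, averaged 74.1 ± 21.1 CPM in KO and 325 ± 63.2 CPM in controls (SD, n = 4 and 5; log2 -2.05, edgeR adjusted p = 2.4e-05). Its peak with "-B" or miR-122-3p matches held 29 reads in KO and 969 in controls. Nfe2l1, the transcription factor that raises proteasome genes when the proteasome is inhibited, was lower (98.1 ± 16.6 CPM in KO and 182 ± 25.0 CPM in controls; log2 -0.90, edgeR adjusted p = 0.0024), while the stress factor Nfe2l2 was higher (log2 1.02, edgeR adjusted p = 0.0020). The shuttle factors Ubqln1 (log2 -0.76) and Ubqln4 (-1.23) and the ligase Huwe1 (-0.51, edgeR adjusted p = 0.0498) were lower. The cap-bound deubiquitinase Usp14 was higher, at 75.7 ± 23.4 CPM in KO and 28.1 ± 5.87 CPM in controls (log2 1.41, edgeR adjusted p = 0.0019), as were the cap-bound thioredoxin Txnl1 (0.53), the conjugating enzyme Ube2d2a (0.76) and Zfand5 (0.47), which binds the cap. With miR-122-5p peaks left out of every gene, Ubqln4 stood at 0.18 (edgeR adjusted p = 0.78) and Huwe1 at -0.26 (edgeR adjusted p = 0.34), and neither was called. Txnl1 (0.27, edgeR adjusted p = 0.27), Ube2d2a (0.50, edgeR adjusted p = 0.055) and Zfand5 (0.20, edgeR adjusted p = 0.31) lost their calls there too, although they have no such peak and only the scaling of their reads changed. Vcp, Nfe2l1, Nfe2l2, Ubqln1 and Usp14 were called in both fits, in the same direction. The second fit left out miR-122-5p peaks only, so the Vcp peak with 29 reads in KO and 969 in controls stayed in it. Over all peaks, the median log2 fold change of the 42 genes was 0.08.

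Hepatocyte markers summed to 20531 to 23650 CPM in KO, against 30919 to 45122 CPM in controls. Of 10 genes, 7 were lower and 2 higher (23.3% and 21.9% of all tested genes). These sums include miR-122 peaks: miR-122-5p peaks of Cps1 held 736 reads in KO and 13419 in controls, and those of Fgb 211 and 4203. Of the 7, Apoa1 has no miR-122 label. With miR-122-5p peaks left out of every gene, Cps1 stood at log2 -0.94 and Fgb at -0.86. In that fit the changed scaling alone moved untouched genes by a median of -0.26. It also kept "-B" and miR-122-3p peaks, which held 45 reads in KO and 2293 in controls in Alb. In Serpina1a they held 127 and 2983, and in Apob 218 and 213. Neuron markers were higher for 10 of 12 genes, and 5 of the 12 were at 0 in all controls. Stellate or matrix cell markers summed to 1536 to 2015 CPM in KO, against 727 to 899 CPM in controls. The part of these markers in the proteasome sums was not tested.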

How the data were processed

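AGO CLIP-seq counts of 9 mouse livers were used. Per the submitters' processing notes, Bowtie2 and mm10 were used; the sources used here give no version, peak caller, duplicate treatment, strand rule or counting rule. The deposited values were raw read counts per peak, per the file headers, whole numbers over 92645 unique peaks (143524 rows, 1 per seed match). Peaks, annotation, gene names and seed matches were the authors'. The phyloP score of each match was deposited too, as the authors' mean over its core bases, and is only described.

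Counts were summed per gene over unique peaks, with and without peaks labelled miR-122-5p. Peaks without a gene (10.97% of counts) stayed out of gene tests. Library totals were 445912 to 1170130 counts; amplified reads of unknown duplicate treatment mean that floors (3 counts over a group) cover counting error only. Tests used edgeR 4.0.16 (R 4.3.3): TMM, filterByExpr, quasi-likelihood with sex and genotype over all 9 libraries, Benjamini-Hochberg over all genes or peaks, threshold 0.05. Adjusted p-values are edgeR's unless named. CPM are TMM-scaled. DESeq2 1.42.0, 3 other scalings, no filter, no sex term, the replicate number as a block, annotation subsets and each library left out were tried as alternatives. Exact permutation used scipy 1.17.1; tables and plots used pandas 2.3.3 and matplotlib 3.10.9. The gene test was checked on simulated counts with known changes. These were few and balanced in direction, with no sex effect, so the check does not cover the choice of scaling.

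No replicate pair agreed within sampling noise (chi-square per degree of freedom 3.07 to 13.3 in 16 pairs). The members, gene lists and alternatives were chosen with earlier results of these data known. Named genes were members called in either gene fit, members with a miR-122 match and the most-read tested member of each role; named peaks had a miR-122 match or passed, while unmatched peaks that did not pass (in Psma4, Psma6, Psmb1 and Psmd2) were chosen after their values were seen. The share test was added then too, as were 3 alternatives (leaving out "-B" peaks, leaving out "-B" and miR-122-3p peaks, and scaling from all peaks). Of the 251 peaks, 19 overlap another gene in the RefSeq table (GRCm38.p6, the build that mm10 denotes), and counts of overlapping genes are uncertain.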

Additional observations from a re-analysis of the deposited data

Results flagged for a closer look

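In 56 groups of proteasome values, 1 library stood apart from the rest of its group by Dixon's gap test, where chance gives about 1 in 20. AGO-bound reads over Psmg2, an assembly chaperone, were 35.7 CPM in control replicate 5, against 15.8 to 20.9 CPM in the other controls. The gap was 0.743 of the group's range. Psmg2 was not called between KO and control.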

How the results depend on the processing

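Over all peaks, Psma1, Psma4, Psma7, Psmc4 and Psmd12 stayed lower and called under all 17 alternatives run for each. Psmb8 lost its call under DESeq2 (adjusted p = 0.069), library totals (edgeR adjusted p = 0.10), upper quartile scaling (0.072) and the replicate block (0.073), and without KO replicate 1 or 2 or control replicate 1, 4 or 5. Proteasome genes called lower numbered 15 with TMM factors from genes without a miR-122 match and 1 in 3′ UTR peaks alone. The share of all tested genes lower with those TMM factors is not given here. Of higher calls there was 1 under library totals (Psme3, 0.74, edgeR adjusted p = 0.046), 1 in coding peaks alone (Psmg2, which reversed to 0.90, edgeR adjusted p = 0.049) and 1 under the replicate block (Psme3, 1.47, edgeR adjusted p = 0.012). The median log2 fold change was -0.76 with TMM from unmatched genes, -0.17 without a filter and -0.12 in coding peaks, and -0.43 to -0.18 with 1 library left out. The median of all genes was then -0.34 with TMM from unmatched genes, 0.15 with upper quartile, 0.19 with library totals and 0.10 with DESeq2. Over all genes, lower calls were 1061 in 3′ UTR peaks, 1153 in coding peaks and 1351 under the block, and higher calls 1092 with TMM from unmatched genes, 1006, 976 and 1273 in the same order.

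Without miR-122-5p peaks, lower proteasome genes were 5 with library totals, 1 in 3′ UTR peaks, 3 in coding peaks, 3 under the replicate block and 3 with the scaling of all peaks, and 4 (without KO replicate 1) to 9 with 1 library left out. Higher ones were 1 under the block (Psme3) and 1 with the scaling of all peaks (Psma6). The median was -0.48 with TMM from unmatched genes, -0.12 in coding peaks, -0.070 with the scaling of all peaks and -0.56 to -0.27 with 1 library left out. Psmb8 reversed to 0.81 with "-B" and miR-122-3p peaks left out too. Over all genes, lower calls were 672 in 3′ UTR peaks, 816 in coding peaks, 786 under the block and 944 to 1668 with 1 library left out, and higher calls 746 in 3′ UTR peaks, 590 in coding peaks and 2247 with the scaling of all peaks.

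For single peaks, no filter gave 10470 lower and 11273 higher calls over the table, and 25 lower and 6 higher among proteasome peaks. Higher proteasome peaks were 1 by DESeq2, 1 without the sex term, 4 with upper quartile scaling and 0 to 2 with 1 library left out, and lower ones 8 (without control replicate 3 or 5) to 15. Higher peaks over the table were 1622 under the block and 1940 to 3834 with 1 library left out. The sex contrast gave 31 lower and 46 higher genes by DESeq2, and 1 to 31 lower and 3 to 42 higher with 1 library left out. Same-numbered libraries shared only a number (r from -0.08 to 0.02).

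Of 850 values of named genes under alternatives, 51 lost a call, 23 gained one and 2 reversed, and the other 774 kept their side of the threshold. Among those 774, 44 changed sign without a call under either setting. Where a count moved, the cause was not tested, except that annotation subsets and leaving out a library have fewer reads or samples by construction. Genes near 16 to 81 reads could not be tested, and peaks of few reads show only large differences.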
